A study of Mus musculus with 6 samples.

Results

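Genes of the regulator of G protein signalling (RGS) family were taken from a table of hippocampal transcripts after focal cerebral ischemia. The members are the rows of the authors' deposited table whose gene name is Rgs followed by digits. They are 4 of the 637 listed genes: Rgs2, Rgs4, Rgs16 and Rgs1. The ischemia group had focal middle cerebral artery occlusion (MCAO), a stroke model in which a large vessel that feeds the forebrain is closed, and the sham group had a Sham operation. Each group held 3 samples of hippocampus from wild type C57BL/6 mice aged 56 days. The sample titles of both groups carry 2 h, and no source used here states what the 2 h count from, the operated side, the sex of the mice or whether a sample is 1 animal. Each gene has 1 mean normalised read count for each group in the authors' deposited table, under headers M2 and S2. These were read as MCAO and sham from the initials of the treatments, and every direction below rests on that reading.

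RGS proteins are brakes on heterotrimeric G proteins. A receptor loads the G alpha subunit with GTP, and the RGS domain speeds the hydrolysis of that GTP, so the signal ends sooner. In hippocampal neurons the receptors for acetylcholine, serotonin, glutamate and adenosine signal through these G proteins. All 4 members belong to the R4 subfamily, small proteins that consist of little more than the RGS domain. Rgs2 is known for a preference for Gq alpha and is an immediate-early gene in neurons, Rgs4 acts on Gi and Gq alpha and is abundant in forebrain neurons, Rgs16 also acts on Gi and Gq alpha, and Rgs1 is best known for damping chemokine receptors in leukocytes.

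The stretches upstream of the start sites are shown because the 3 members with an entry in the promoter table were higher in ischemia, and so that their letters can be set beside their values. The sequences are from RefSeq, build GRCm38.p6, matched by gene symbol for 3 of the 4 members, each 250 bases long and ending at the base before the start site. Capitals mark TGACG or its reverse complement CGTCA, the core of the cAMP response element (CRE), and CCAAT or its reverse complement ATTGG, the CCAAT box. The coordinates are chr1:144004150-144004399 on the minus strand for Rgs2, chr1:169747643-169747892 on the minus strand for Rgs4 and chr1:153740103-153740352 on the plus strand for Rgs16.
Rgs2: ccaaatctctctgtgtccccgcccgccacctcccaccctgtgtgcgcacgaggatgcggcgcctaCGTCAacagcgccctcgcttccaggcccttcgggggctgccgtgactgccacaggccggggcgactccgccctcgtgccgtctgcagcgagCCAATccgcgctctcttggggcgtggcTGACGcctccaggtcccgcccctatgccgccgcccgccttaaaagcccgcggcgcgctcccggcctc
Rgs4: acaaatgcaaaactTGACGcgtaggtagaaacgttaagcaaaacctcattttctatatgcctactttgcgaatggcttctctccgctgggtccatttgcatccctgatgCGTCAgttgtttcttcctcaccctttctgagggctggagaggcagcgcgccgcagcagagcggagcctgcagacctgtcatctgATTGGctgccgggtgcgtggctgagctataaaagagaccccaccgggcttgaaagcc
Rgs16: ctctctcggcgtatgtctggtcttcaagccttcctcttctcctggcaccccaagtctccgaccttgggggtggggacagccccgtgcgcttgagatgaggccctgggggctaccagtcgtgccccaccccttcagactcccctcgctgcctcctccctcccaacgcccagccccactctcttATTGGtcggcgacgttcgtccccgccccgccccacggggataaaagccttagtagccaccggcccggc
The Rgs2 stretch holds 2 CRE cores, which begin 185 and 67 bases before the start site. Those of Rgs4 begin 236 and 141 bases before it, and the Rgs16 stretch has 0. At least 2 such cores were found in 3.90% of all 32851 upstream stretches of the same length, in 4.85% of the 21263 of protein-coding genes, in 20.1% of the 363 of genes listed as higher in ischemia and in 2.11% of the 190 of genes listed as lower. Median G and C content was 61.2% in the stretches of higher genes and 60.8% in those of lower genes, against 55.6% in protein-coding genes. Each of the 3 stretches has 1 CCAAT box, which 33.8% of all stretches hold at least once. These boxes begin 94 bases before the start site in Rgs2, 57 in Rgs4 and 68 in Rgs16. The box TATAAA stands 31 bases before the start site in Rgs4 and occurs in 7.59% of all stretches. GCGNGGGCG, the letters bound by EGR factors, occurs 1 time in Rgs2, on the other strand, and overlaps no CRE core there. These letters occur in 4.70% of all stretches and in 6.34% of those of protein-coding genes. Among stretches of higher genes 12.1% hold them, and among those of lower genes 11.1%. Searches on both strands for the complete CRE TGACGTCA (1.55% of all stretches), the AP-1 site TGANTCA (6.75%), the CArG box (1.47%) and the kappaB site (5.0%) gave 0 matches in the 3 stretches. A match of letters is a description and not evidence of binding, and the absence of a match covers only these 250 bases.

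All 4 RGS genes were higher in ischemia, with folds between 2.23 and 9.66 in the authors' deposited table. Rgs2 and Rgs1 had nearly equal folds at very different levels, Rgs4 was intermediate and Rgs16 changed least. The table lists called genes alone, those with an adjusted p-value up to 0.0499, so presence in it means that a gene was called. Of the 28319 genes that the adjusted p-values imply were tested, 1.47% were called higher in ischemia, 0.784% lower and 2.25% in either direction. Among 21 genes named Rgs and digits in RefSeq, 4 were called higher (19.0%) and 0 lower. An RGS gene that is not listed was either not called or not tested, and its level is unknown. In whole tissue, more cells of a type and more RNA per cell cannot be told apart.

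**Figure D1:**
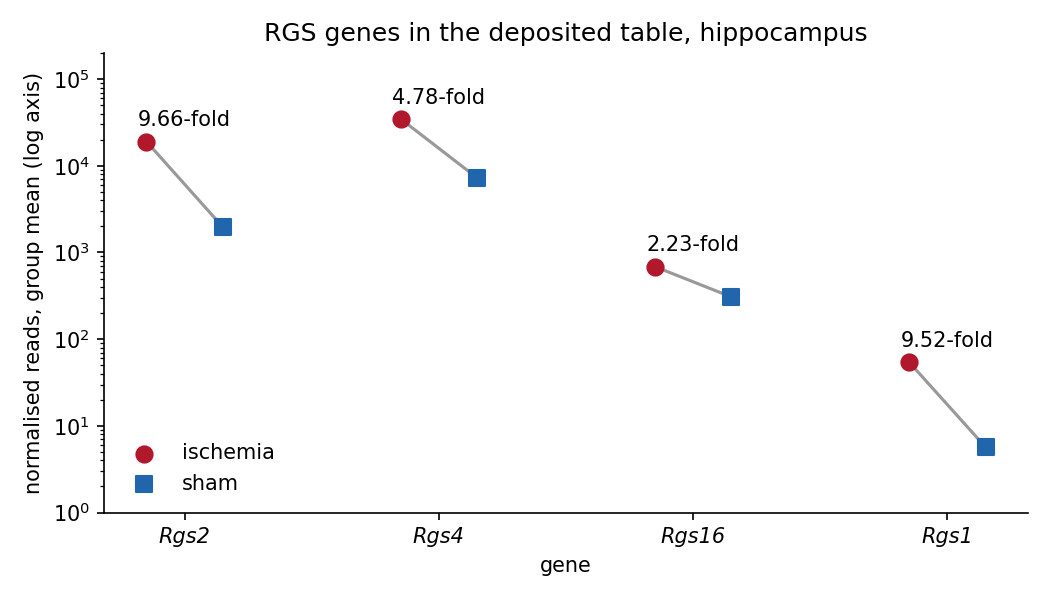
Group means of the 4 RGS genes in the authors' deposited table, in normalised reads on a log axis, with ischemia as circles on the left of each pair and sham as squares on the right; the number above a pair is ischemia over sham. Rgs4 and Rgs2 stand above Rgs16 and Rgs1 in both groups, and the steepest lines are those of Rgs2 (9.66-fold) and Rgs1 (9.52-fold).

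Rgs2 had the smallest p-value of the family. Its mean was 19055 normalised reads in ischemia and 1973 in sham in the authors' deposited table, a rise of 9.66-fold (log2 fold change 3.27, authors' adjusted p = 1.11e-20). By fold it stands at place 37 of the 415 genes that the authors' deposited table lists as higher, and by p-value at place 16 of all 637. By mean count it was at place 32 in ischemia and 197 in sham among the listed genes of the authors' deposited table. Rgs2 thus stood much higher in the order of counts in ischemia than in sham.

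Rgs4 was the most counted member in both groups. The authors' deposited table gives 34735 normalised reads in ischemia and 7274 in sham, a rise of 4.78-fold (log2 fold change 2.26, authors' adjusted p = 0.00403). Its gain of 27461 reads is at place 11 of the 637 genes in the authors' deposited table, and that of Rgs2, 17082 reads, at place 20. Its p-value is the largest of the 4: place 284 in the authors' deposited table, although its fold is at place 93 of the higher genes. Group means carry no spread, and only means up to 700 normalised reads were split into single libraries. Those of Rgs4 and Rgs2 are larger, so the library values behind their p-values cannot be shown.

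Rgs16 had the smallest rise and the second smallest p-value of the 4. Its means were 686 normalised reads in ischemia and 307 in sham in the authors' deposited table, 2.23-fold higher (log2 fold change 1.16, authors' adjusted p = 4.47e-08). In the order of all p-values it stands at place 62 in the authors' deposited table, and by fold at place 187 of the higher genes. Exons of Rgs16 overlap those of Gm28513, a gene on the opposite strand, over up to 236 bases in the GENCODE M21 annotation. No source used here says whether strand was used in counting, so reads of the pair may be mixed in the Rgs16 value. The other 3 members overlap no exon of another gene there.

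Rgs1 was scarce. The authors' deposited table gives 54.2 normalised reads in ischemia and 5.69 in sham, a rise of 9.52-fold (log2 fold change 3.25, authors' adjusted p = 3.22e-06). At place 38 of the higher genes, it directly follows Rgs2 by fold in the authors' deposited table. By ischemia mean it was at place 615 of the 637 listed genes.

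Values of single libraries were recovered for Rgs1 in both groups and for Rgs16 in sham. Each group mean adds up whole reads of 3 libraries, weighted by a fixed step per library, and most low means can be reached by a single set of whole reads. Libraries are lettered A to C by their size factor (relative depth: 0.837, 0.878 and 1.20 in ischemia, and 0.874, 1.11 and 1.20 in sham) and could not be matched to the replicate numbers of the labels. Rgs1 had 35, 44 and 85 reads in ischemia libraries A, B and C, which are 41.8, 50.1 and 70.6 normalised reads, and 8, 6 and 3 reads in the sham libraries, which are 9.15, 5.42 and 2.50 normalised reads. The lowest ischemia library lay above the highest sham library. Since Rgs1 is listed because it was called, as were 1.47% of the tested genes in this direction, the gap is a description and not further evidence.

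For Rgs16 in sham, 311, 330 and 322 reads were recovered in libraries A, B and C, or 356, 298 and 268 normalised reads. The mean of Rgs16 in ischemia returned 4 possible sets of whole reads, with lowest libraries of 93.4, 425, 602 and 225 normalised reads and highest libraries of 1355, 979, 756 and 1088. In 2 of these sets every ischemia library lies above the 3 sham libraries, and in the other 2 sets 1 ischemia library lies below them. The whole reads alone therefore do not decide whether the groups overlap for Rgs16. The authors' adjusted p of Rgs16 (4.47e-08) also bears on the spread of the libraries. It was not used to choose among the sets, since the authors' test is not stated.

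**Figure D2:**
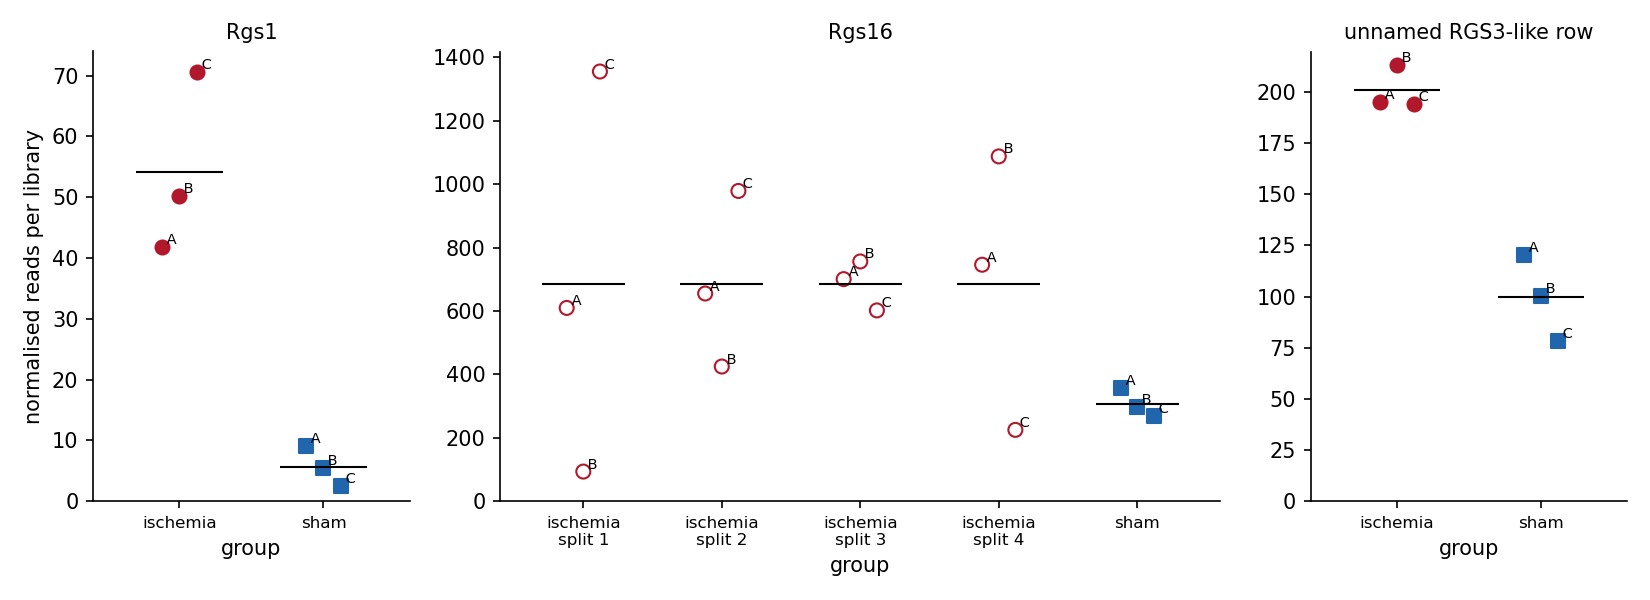
Normalised reads per library (points, lettered A to C by size factor) and their mean (line), ischemia on the left and sham on the right, for Rgs1, Rgs16 and a row without a symbol described as RGS3-like. The Rgs1 libraries do not overlap between groups (41.8 to 70.6 against 2.50 to 9.15 normalised reads), a description only, since listed genes were called. Open circles are the 4 possible sets for Rgs16 in ischemia, of which at most 1 is right.

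Among the members themselves, the balance shifted. Levels of different genes are compared here per kilobase of merged exon in GENCODE M21, because a longer transcript gives more reads. Merged exons join all annotated transcripts of a gene: 3.63 kb for Rgs2, 3.10 for Rgs4, 2.34 for Rgs16 and 6.95 for Rgs1. They can be longer than the transcript present. Ratios, shares and order between genes depend on this choice, and the fold of each gene does not. Per kilobase, Rgs4 stood at 11212 normalised reads in ischemia and 2348 in sham, Rgs2 at 5254 and 544, Rgs16 at 293 and 131, and Rgs1 at 7.80 and 0.819. The order of the members was the same in both groups. Rgs4 was 2.13 times the level of Rgs2 per kilobase in ischemia and 4.32 times in sham. Rgs2 made up 31.3% of the summed level of the 4 genes per kilobase in ischemia and 18.0% in sham, while Rgs4 made up 66.9% and 77.6%. Rgs16 made up 1.75% in ischemia and 4.35% in sham. The sum was 5.54-fold higher in ischemia. The log2 folds of Rgs4 and Rgs2 differ by -1.02, those of Rgs2 and Rgs16 by 2.11 and those of Rgs2 and Rgs1 by 0.02. These differences between members were not tested, since group means have no spread.

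**Figure D3:**
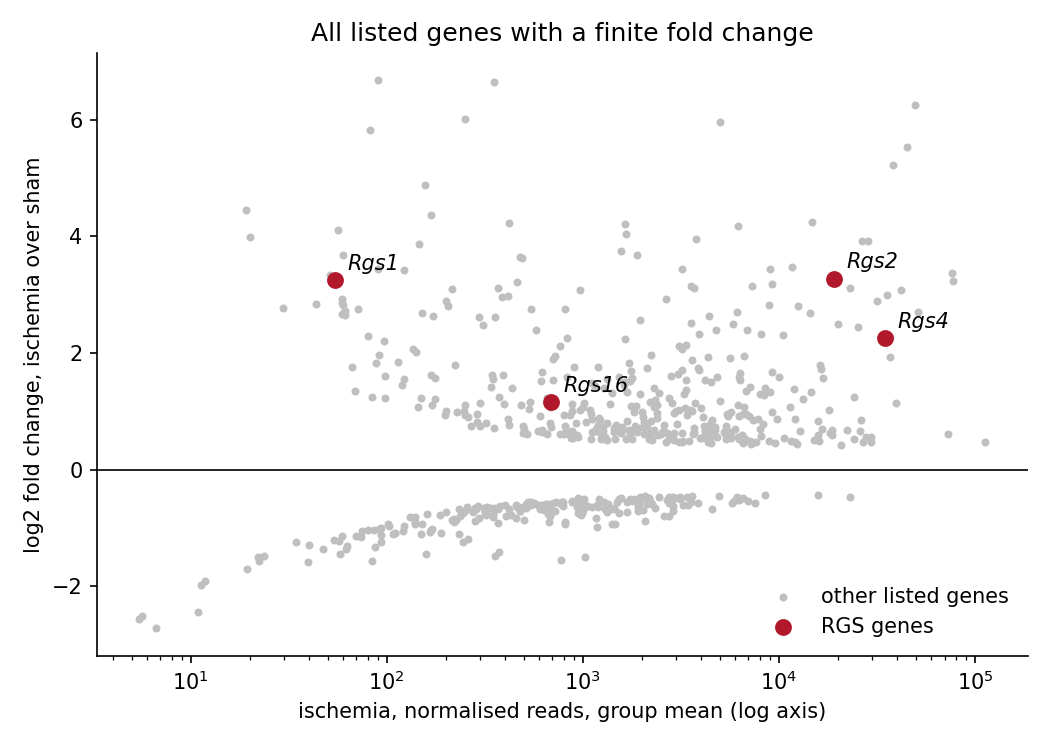
Log2 fold change of ischemia over sham against the ischemia mean (log axis, normalised reads) for the listed genes with a finite fold in the authors' deposited table, with the RGS genes in red. Rgs2 and Rgs4 lie at the right, among the most counted genes, and Rgs1 lies far to the left at a fold close to that of Rgs2.

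The rest of the family is defined by its absence from the table. Of 10 R4 genes, 4 were called higher (40%, beside 1.47% of all tested genes), and Rgs3, Rgs5, Rgs8, Rgs13, Rgs18 and Rgs21 are not listed. Of the 11 RGS genes of the other subfamilies, 0 are listed, a share near the 2.25% called in either direction among all tested genes. The 11 are the RZ genes Rgs17, Rgs19 and Rgs20, the R7 genes Rgs6, Rgs7, Rgs9 and Rgs11, the R12 genes Rgs10, Rgs12 and Rgs14, and Rgs22. The median log2 fold of the 4 members was 2.75 in the authors' deposited table, beside 1.07 over all 415 higher genes.

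All 4 called members lie on chromosome 1. In RefSeq GRCm38.p6, 9 of the 10 R4 genes are on that chromosome, in 3 clusters. Rgs2, Rgs13, Rgs1, Rgs21 and Rgs18 follow each other with 0 protein-coding genes between them, as do Rgs8 and Rgs16, and Rgs5 and Rgs4. Each cluster thus holds at least 1 called member beside at least 1 that is not listed: Rgs13 lies between the called Rgs2 and Rgs1, Rgs8 is next to Rgs16, and Rgs5, known as a pericyte gene, is next to Rgs4. Of the 552 listed genes with a symbol found in RefSeq, 6.88% are on chromosome 1, and of all its protein-coding genes 5.50%.

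A further row of the authors' deposited table has no gene symbol and carries the description of a predicted RGS3 isoform of another mammal. It falls outside the rule for members and was picked out after its values were seen. Its means were 201 normalised reads in ischemia and 99.6 in sham, 2.02-fold higher in the authors' deposited table (authors' adjusted p = 0.00552). Libraries A, B and C held 195, 213 and 194 normalised reads in ischemia, and 120, 100.3 and 78.3 in sham. The libraries of the 2 groups do not overlap. The row is listed because it was called, as were 1.47% of the tested genes in this direction, so the gap is a description and not further evidence. Whether this row is part of the mouse Rgs3 gene cannot be settled from its description.

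Other components of the G protein cycle were looked up in the same table. Over G alpha, beta and gamma subunits, adenylyl cyclases, phospholipase C and IP3 receptors, phosphodiesterases, potassium channels gated by G proteins, receptor kinases, arrestins, other G protein modulators and R7 partners, 0 of 94 genes were called in either direction, a share near the 2.25% called among all tested genes. Receptor kinases and arrestins are other general brakes on G protein-coupled receptors. The lists under these names held 6 and 8 genes, and not every gene on them need act as such a brake. Of 10 further proteins with an RGS domain, 1 was called: Axin2, a scaffold that promotes the destruction of beta-catenin, with 789 normalised reads in ischemia and 1167 in sham, 1.48-fold lower in the authors' deposited table (authors' adjusted p = 0.0306).

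Receptors for neurotransmitters and peptides moved in both directions, 3 higher and 5 lower of 101, beside 1.47% and 0.784% of all tested genes. The median log2 fold of these 8 was -0.59, beside 0.66 over all listed genes of the authors' deposited table. Among 47 receptors coupled to Gi, 1 was higher and 4 lower. Htr1a, the inhibitory serotonin receptor 1A, had 1161 normalised reads in ischemia and 2069 in sham in the authors' deposited table, 1.78-fold lower (authors' adjusted p = 0.000237). The presynaptic glutamate receptor gene Grm2 was 1.64-fold lower, and Oprl1, which encodes the nociceptin receptor, 1.59-fold lower in the authors' deposited table (authors' adjusted p = 0.000242 and 0.00115). Gpr17, a receptor of oligodendrocyte precursors, was 1.42-fold lower and S1pr5, a sphingosine-1-phosphate receptor found in oligodendrocytes, was 1.45-fold higher in the authors' deposited table (authors' adjusted p = 0.0265 and 0.0409).

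Of 32 receptors coupled to Gq, the target of Rgs2, 1 was higher and 1 lower. With 2.25% of all tested genes called in either direction, such small counts say little about the receptors as a group. The bradykinin receptor gene Bdkrb2 had 61.3 normalised reads in ischemia and 9.71 in sham in the authors' deposited table (6.31-fold, authors' adjusted p = 0.0268). The prostaglandin F receptor gene Ptgfr had 5.48 normalised reads in ischemia and 32.3 in sham, 5.90-fold lower in the authors' deposited table (authors' adjusted p = 0.0458). Both were scarce. Of 22 receptors coupled to Gs, the beta-1 adrenergic receptor gene Adrb1 was called, with 1105 normalised reads in ischemia and 573 in sham in the authors' deposited table (1.93-fold higher, authors' adjusted p = 0.0388).

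Beside 1.47% higher and 0.784% lower among all tested genes, genes for peptide and chemokine ligands of such receptors gave 7 rises and 0 falls of 37. The 4 with the smallest p-values were the chemokine genes Ccl7, Cxcl2 and Ccl2 and the vasodilator peptide gene Adm. Ccl2, which attracts monocytes, had 123 normalised reads in ischemia and 11.4 in sham in the authors' deposited table (10.8-fold higher, authors' adjusted p = 0.00321).

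Brakes on other signals were also in the table. The RGK proteins are small GTPases that restrain voltage-gated calcium channels, and of their 4 genes 2 were higher. Gem had 973 normalised reads in ischemia and 115 in sham, an 8.49-fold rise in the authors' deposited table (authors' adjusted p = 4.35e-25). Rrad had 490 normalised reads in ischemia and 39.4 in sham, a 12.4-fold rise in the authors' deposited table (authors' adjusted p = 1.67e-13). Among all tested genes 1.47% were called higher and 0.784% lower. Of 32 inhibitors of other signal pathways, 13 were higher and 1, Axin2, was lower, with a median log2 fold of 1.90. The 4 with the smallest p-values were the MAP kinase phosphatase gene Dusp1 (5.27-fold), the cytokine receptor inhibitor gene Socs3 (6.77-fold), the salt-inducible kinase gene Sik1 (4.18-fold) and Zfp36, whose product destabilises cytokine mRNAs (4.80-fold), in the authors' deposited table. The folds of Rgs2 and Rgs1 are above each of these, and those of Rgs4 and Rgs16 lie within or below their range.

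**Figure D4:**
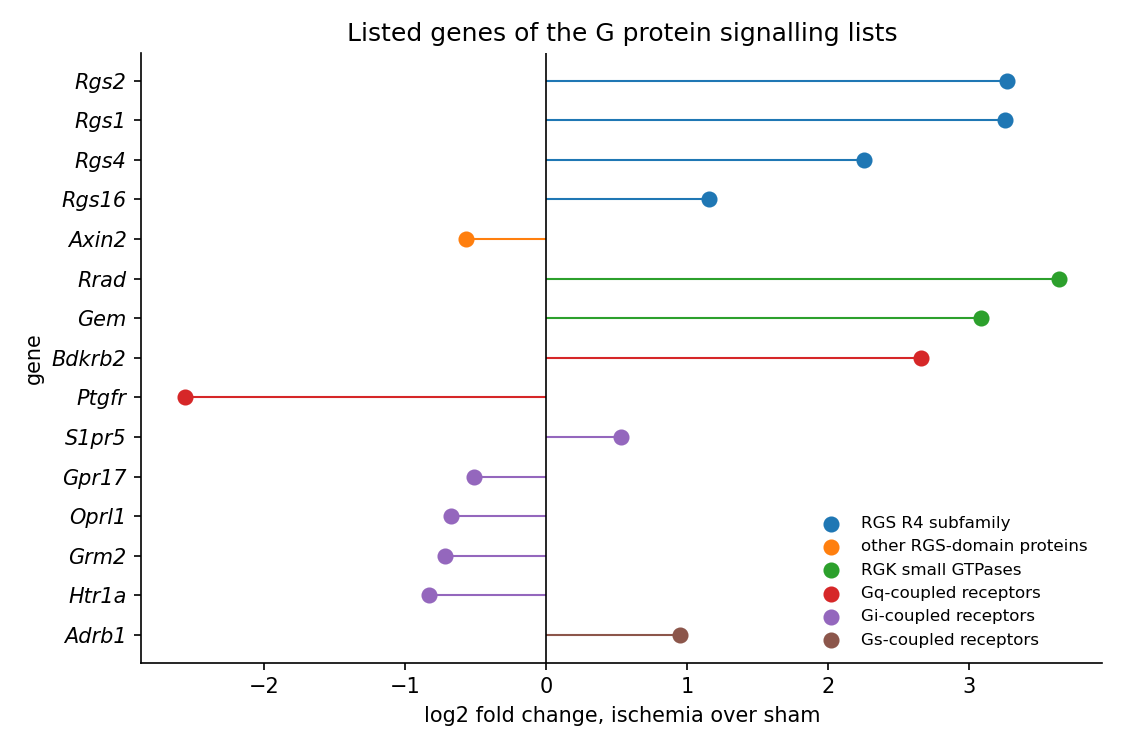
Log2 fold change of ischemia over sham in the authors' deposited table for each called gene of 6 lists of G protein signalling and RGK genes, coloured by list. The 4 RGS genes and the 2 RGK genes are to the right of 0, and 4 of the 5 Gi-coupled receptors are to the left.

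The genes nearest to each member over its 2 group means, by distance on log2 axes, were as follows. For Rgs2 they were the neurotrophin gene Bdnf, the pentraxin gene Nptx2 and Errfi1, an inhibitor of EGF receptors, at distances of 0.45, 0.50 and 0.51. For Rgs4 they were the nuclear pore gene Ranbp2, the granin gene Scg2 and the transcription factor gene Egr1, at 0.11, 0.42 and 0.56. Rgs16 lay closest to Phlda1, Cd93 and Ovca2, at 0.03, 0.08 and 0.14. Rgs1 lay closest to the neutrophil gene S100a9, to Irx3 and to the chemokine gene Cxcl1, at 0.33, 0.33 and 0.47. The distance rests on 2 means per gene, not divided by exon length, and closeness says that mean counts and fold are alike.

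Markers of other cells were set beside Rgs1 and Rgs16, which are themselves on such lists. The shares over all tested genes are 1.47% called higher and 0.784% lower. Of 13 blood leukocyte markers, 3 were higher and 0 lower: Rgs1 and the neutrophil genes S100a8 and S100a9. The 2 without Rgs1 summed to 131 normalised reads in ischemia and 15.1 in sham in the authors' deposited table. In ischemia libraries A, B and C, S100a8 had 31.1, 80.9 and 101 normalised reads and S100a9 had 26.3, 94.5 and 58.1. In the sham libraries, S100a8 had 18.3, 8.13 and 5.0 normalised reads and S100a9 had 1.14, 3.61 and 9.17. Library A was the lowest ischemia library for Rgs1 and for both neutrophil genes. In sham, Rgs1 ran in the order of S100a8 and against that of S100a9. The neutrophil gene Ly6g, the pan-leukocyte gene Ptprc, the T cell genes Cd3d and Cd3e and the B cell genes Cd79a and Ms4a1 are not listed. Among the 13 markers of microglia, 2 were higher and 0 lower, Fcrls by 1.47-fold and Ly86 by 1.53-fold in the authors' deposited table, and Aif1, Cx3cr1 and Tmem119 are not listed. The part of these cells in the Rgs1 result was not tested.

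Rgs16 is also a marker of the thalamus, which borders the hippocampus. Of 15 thalamus markers, 2 were higher and 0 lower: Rgs16 and Rora, which had 2431 normalised reads in ischemia and 1620 in sham in the authors' deposited table (log2 fold change 0.59, authors' adjusted p = 0.00612). The defining markers Prkcd, Tcf7l2 and Lef1 are not listed. The part of thalamic tissue in the Rgs16 result was not tested. Pericyte, astrocyte, interneuron and pyramidal cell markers gave 0 calls of 10, 10, 10 and 11, near the 2.25% called among all tested genes. Hippocampal markers that were not called have no values, so the labelled tissue could not be checked against them. Of 12 dentate granule cell markers, 2 were lower, Lct (2.92-fold) and Dsp (2.83-fold), in the authors' deposited table.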

How the data were processed

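RNA was extracted from flash-frozen hippocampi with Trizol and sequenced after Illumina library preparation, per the labels' protocols. Bowtie 0.12.2 and build mm8 are named in the submitters' processing notes, with no role given. Per the file headers and identifiers, 612 of the 637 deposited gene identifiers belong to an Ensembl BALB/cJ annotation. No source used here states the counting program, use of strand, normalisation or test. The signal deposited by the authors is a normalised read count, as a mean per group. The log2 fold change deposited by the authors equals the log2 ratio of these means within 5e-05, with no pseudocount. The p-value and adjusted p-value are the authors' own. There are 0 columns for single samples, so no test was run again, including limma, which had been planned if such values were present. The total depth of each library is unknown. Nothing says that the 3 samples of a group came from separate animals, so the p-values cover only how these samples vary, in part perhaps technically.

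The number of genes tested, 28319, is the one whose Benjamini-Hochberg values match the deposited ones in 636 of 637 rows. Whole reads per library were separated from means by integer relations (lattice reduction) among the 16 lowest means of each group, which gave 1 set of steps above 0.2. In ischemia 134 of 172 means up to 450 had 1 solution and in sham 187 of 194; means up to 700 were split for the genes named. Both steps were tested on simulated data.

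The members and the 32 gene lists were chosen with earlier results of these data known, and the promoter motifs after the table was seen. Named genes are all members, up to 4 called genes with the smallest p-values per list, and the 3 nearest genes of each member by group means. Computation used Python 3.11.15 with pandas 2.3.3, numpy 2.4.6 and sympy 1.14.0; matplotlib 3.10.9 drew the plots.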

Additional observations from a re-analysis of the deposited data

How the results depend on the processing

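The calls are the authors', so stricter settings could only remove them. Rgs2, Rgs16 and Rgs1 passed a Bonferroni correction over 28319 genes, and Rgs4 did not (log2 fold change 2.26), which left 3 RGS genes. All 4 passed an adjusted p of at most 0.01 and a log2 fold change of at least 1 in either direction, while the average of the group means of Rgs1 is below 50 normalised reads. A pseudocount of 1 gave Rgs1 a log2 fold change of 3.04. Leaving out single libraries gave Rgs1 log2 fold changes between 2.89 (without sham library C) and 3.77 (without sham library A), and leaving out single sham libraries gave Rgs16 between 1.07 and 1.28. The settings for Rgs4 and Rgs1 and those for the count of all listed genes were added after seeing the data. For Rgs2, Rgs4 and the ischemia libraries of Rgs16 it could not be run. The called genes of the G protein lists, 15 in all, were 9 at an adjusted p of at most 0.01, 7 after the Bonferroni correction and 8 with the minimum fold, and all 637 listed genes became 361, 159 and 271 in turn. No paired analysis was possible because the deposited columns are group means. Library depth is known only in relation to the others, and the low Rgs1 counts in sham limit the precision of its fold.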
